A study of Mus musculus with 2 samples.

Results

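Mitochondrial ribosomal protein genes were described in MEL, an established mouse erythroleukemia cell line whose cells resemble red blood cell precursors arrested before terminal differentiation. The genes were chosen by name only, as protein-coding genes whose mouse symbol begins with Mrpl (large subunit) or Mrps (small subunit) followed by a digit. The annotation held 78 such genes, and 77 of them had a value in both deposited gene tables, 48 of the large and 29 of the small subunit, out of 43346 genes with values (21474 protein-coding). The remaining gene, Mrpl33, was not matched by its gene identifier. Its transcript Mrpl33-201 was listed under another identifier at 62.3 TPM in replicate 1 and 94.5 TPM in replicate 2, and it was left out of all counts below.

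Polyadenylated RNA of the line was read single-end in 1 group of 2 libraries, which the labels call biological replicates. The labels give no treatment, no genotype change and no second group, so only levels in MEL cells and how far 2 libraries differ can be described, and the values below rest on n = 2. Levels are in TPM, the relative number of transcripts corrected for their length, which allows genes to be compared with each other. As RNA of whole cultures was measured, fewer cells that express a gene and less RNA per cell cannot be told apart. Expected counts on genes came to 67735380 in replicate 1 and 79923143 in replicate 2, and the 77 genes took 0.453% and 0.542% of them, with 206 to 10944 counts per gene in replicate 1 and 784 to 25869 in replicate 2. The label of the line was checked against marker genes. All 8 erythroid markers were detected, with summed levels of 4696 and 6421 TPM, while 5 myeloid markers summed to 0.05 and 0.16 TPM, 5 lymphoid markers to 0.79 and 1.89 TPM, and 5 fibroblast and endothelial markers to 0.47 and 0.58 TPM. A single erythroid marker, with a mean of 4289 TPM, made up most of the erythroid sum, and the lowest had 48.3 TPM. The highest mean of a marker was 0.045 TPM in the myeloid list and 1.025 TPM in the lymphoid list. In the fibroblast and endothelial list it was 0.33 TPM. Of the myeloid and lymphoid markers, Ly6g, Cd14 and Cd3e were at 0 in both replicates.

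The mitochondrial ribosome translates the few proteins that the mitochondrial genome encodes, all of them subunits of the respiratory chain or of ATP synthase. Its RNA comes from the mitochondrial genome, but every one of its proteins is encoded in the nucleus, made in the cytosol and imported. Some of these proteins descend from bacterial ribosomal proteins and others fill places that have no counterpart in the bacterial ribosome. In red cell precursors the organelle also carries the first and the last steps of heme synthesis.

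All 77 genes were detected, meaning TPM of at least 1 in both replicates, against 46.8% of all 21474 protein-coding genes. Their median mean level was 85.9 TPM (74.8 in replicate 1 and 90.5 in replicate 2), against 23.0 TPM for the 10045 detected protein-coding genes. Levels ran from 12.2 TPM for Mrpl35 to 387 TPM for Mrps21, and 75 of the 77 genes reached 10 TPM in both replicates. The middle 50% of genes spanned a 2.22-fold range, and the range from the 10th to the 90th percentile was 4.22-fold. The lists around them differed in level. The median was 948 TPM for cytosolic ribosomal protein genes (n = 83), 208 TPM for nuclear genes of the respiratory chain (n = 83) and 1232 TPM for mitochondrially encoded protein genes (n = 13). Genes for assembly of the mitochondrial ribosome had medians of 18.4 and 28.4 TPM in the replicates (n = 28), and mitochondrial translation factors 36.2 and 25.1 TPM (n = 13).

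**Figure D1:**
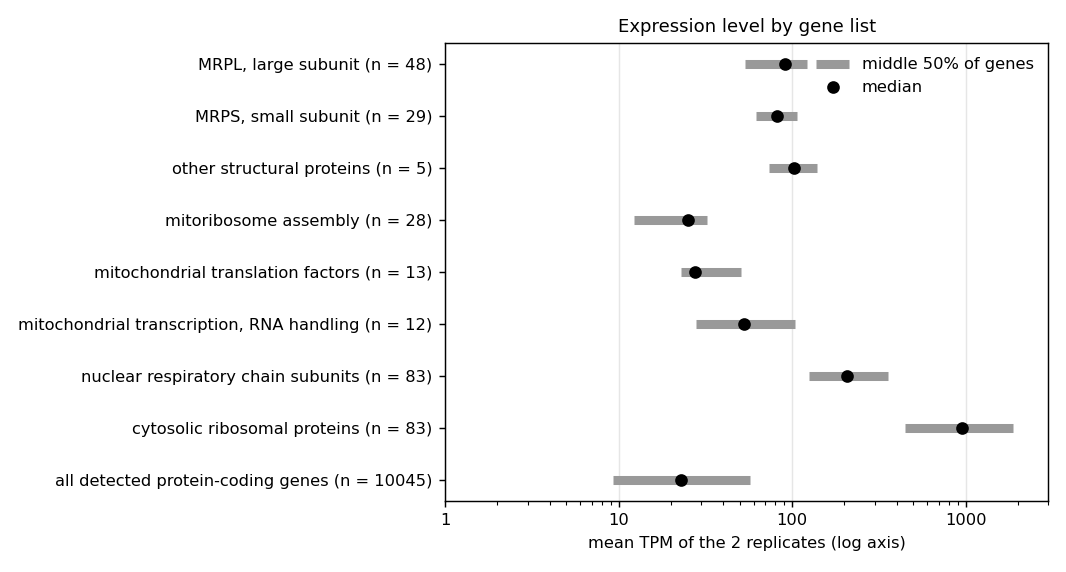
Mean TPM of the 2 replicates on a log axis for 9 gene lists, with the median as a point and the middle 50% of genes as a bar. Both subunits sit near 85.9 TPM, above the assembly genes and translation factors and below the respiratory chain and cytosolic ribosomal protein genes.

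Expression of the large and the small subunit genes was close to equal. The median was 90.9 TPM for the large subunit (75.4 and 96.0 in the replicates) and 81.6 TPM for the small subunit (74.8 and 88.7). On the log2(TPM + 0.1) scale the large subunit median minus the small subunit median was 0.01 in replicate 1 and 0.11 in replicate 2, a mean of 0.06 ± 0.07 (SD, n = 2), which did not exceed the replicate spread. With means of log2 values in place of medians the difference was -0.033 ± 0.031, so its sign depended on the summary. An exact sign-flip test over 2 replicates cannot give a p below 0.5, and none was applied. Genes with a bacterial counterpart had a median of 103 TPM (n = 45) and mitochondria-specific genes 75.5 TPM (n = 32). The second class holds genes whose protein has no counterpart at its place in the bacterial ribosome, and so includes Mrps18a and Mrps18b, which are homologs of bacterial S18. Among genes with a bacterial counterpart alone the large subunit median was higher by 0.29 ± 0.08 on the log2 scale, and among mitochondria-specific genes the difference was 0.04 ± 0.15. Across the 77 genes, log2 transcript length and log2 mean TPM were related with Pearson's r = -0.56 and Spearman's rho = -0.45, given as a description across genes of the same libraries. The lowest gene by mean, Mrpl35, has a length of 3715 bases, and Mrpl52, the highest of the large subunit by mean, 412. The part of length in single levels was not tested.

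**Figure D2:**
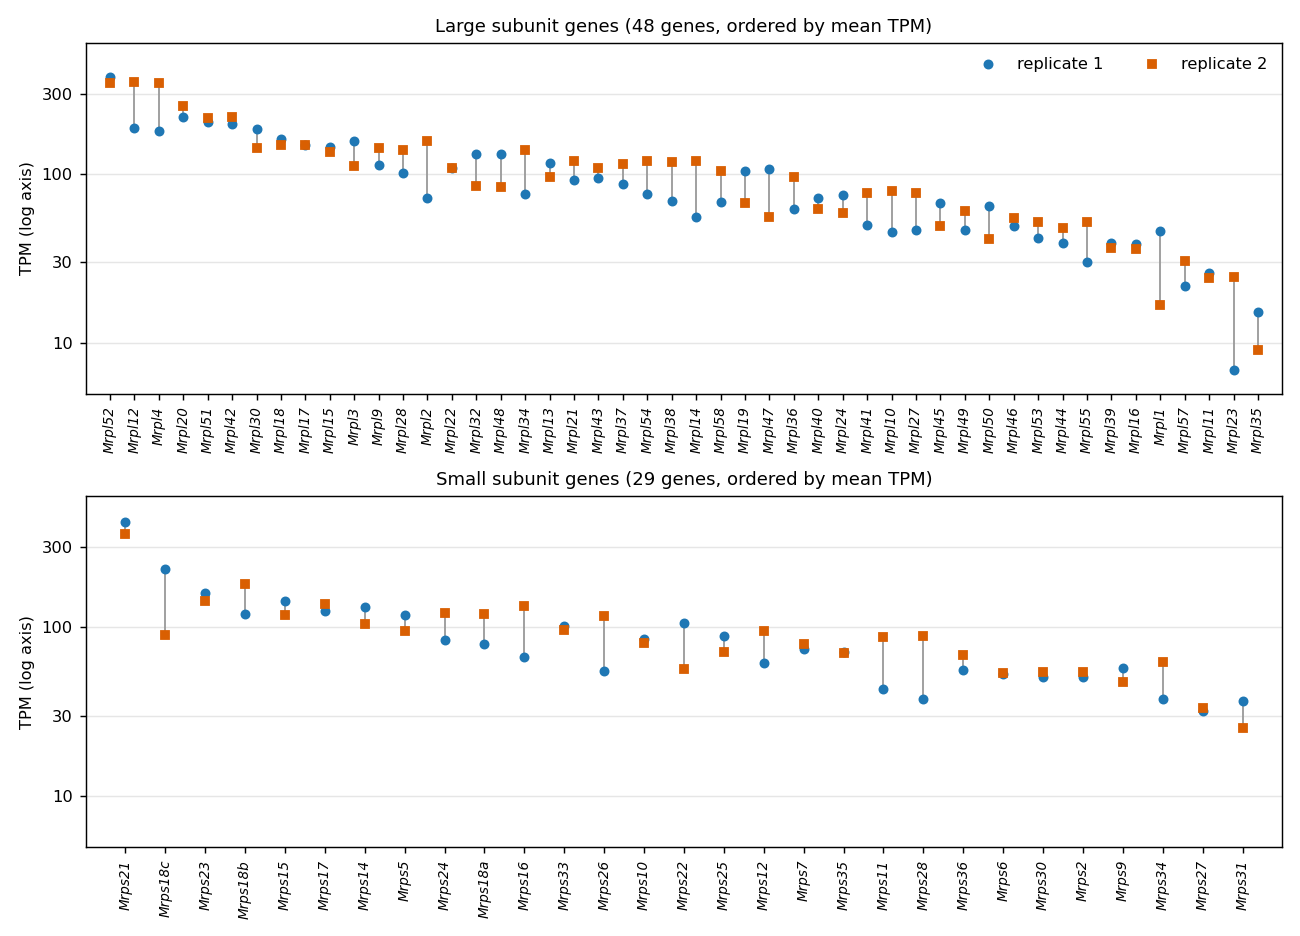
TPM of each gene in replicate 1 (circles) and replicate 2 (squares) on a log axis, with a line joining the values of a gene, for 48 large subunit and 29 small subunit genes. By mean, Mrpl52 leads the large and Mrps21 the small subunit (in replicate 2 Mrpl12 was above Mrpl52), and Mrpl23 and Mrpl35 lie lowest.

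The promoters of the genes at the top of each subunit, and of genes that share a start region with a neighbour, are shown first, because the shared starts and the motifs in them are described further on. They were taken from RefSeq on build GRCm38.p6, the same build as mm10, with the gene's start as RefSeq gives it. Each run is the stretch of the 300-base promoter that holds at most 30 bases of annotated untranslated exon, 5′ to 3′ on the gene's strand. Capitals mark matches to the ETS, NRF1 and YY1 motifs. Mrps21 and Mrpl52 had the highest mean levels of their subunits, and Mrpl12, the next of the large subunit by mean, held none of the motifs searched. Mrps18b, Mrps12 and Mrps11 start head to head with Ppp1r10, Sars2 and Mrpl46. The run of Mrps12 holds the starts of both genes, that of Mrps18b holds its RefSeq start and the GENCODE start of Ppp1r10, and the run of Mrps11 lies before its start and inside the Mrpl46 gene. The runs lie at chr3:95871490-95871764 (minus strand), chr14:54426659-54426938 (plus), chr11:120484387-120484642 (plus), chr17:35916391-35916595 (minus), chr7:28741815-28742071 (minus) and chr7:78782881-78783058 (plus).
Mrps21: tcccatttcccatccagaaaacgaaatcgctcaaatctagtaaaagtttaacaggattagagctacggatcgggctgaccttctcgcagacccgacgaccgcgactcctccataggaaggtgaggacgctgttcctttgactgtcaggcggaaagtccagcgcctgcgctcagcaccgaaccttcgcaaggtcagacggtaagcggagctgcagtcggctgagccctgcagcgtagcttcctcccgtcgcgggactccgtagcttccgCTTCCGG
Mrpl52: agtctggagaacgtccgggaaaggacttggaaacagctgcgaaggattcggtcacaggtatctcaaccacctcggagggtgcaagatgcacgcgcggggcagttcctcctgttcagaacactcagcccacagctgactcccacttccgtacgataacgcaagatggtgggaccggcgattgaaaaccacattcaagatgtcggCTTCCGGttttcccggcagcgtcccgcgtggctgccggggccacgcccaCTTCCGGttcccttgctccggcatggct
Mrpl12: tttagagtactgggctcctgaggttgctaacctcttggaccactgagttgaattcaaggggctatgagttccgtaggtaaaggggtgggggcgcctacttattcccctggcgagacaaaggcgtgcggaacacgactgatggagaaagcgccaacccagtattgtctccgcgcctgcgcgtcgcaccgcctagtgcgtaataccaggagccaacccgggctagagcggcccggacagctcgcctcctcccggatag
Mrps18b: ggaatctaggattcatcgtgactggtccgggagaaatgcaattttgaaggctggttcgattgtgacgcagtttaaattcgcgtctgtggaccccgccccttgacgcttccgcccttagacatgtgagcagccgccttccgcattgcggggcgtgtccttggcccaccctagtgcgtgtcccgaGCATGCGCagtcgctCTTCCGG
Mrps12: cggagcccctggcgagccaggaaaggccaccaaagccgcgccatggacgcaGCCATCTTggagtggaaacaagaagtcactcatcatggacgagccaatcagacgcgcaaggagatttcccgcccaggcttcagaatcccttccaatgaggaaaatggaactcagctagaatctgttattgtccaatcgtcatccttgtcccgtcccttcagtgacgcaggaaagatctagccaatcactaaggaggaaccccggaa
Mrps11: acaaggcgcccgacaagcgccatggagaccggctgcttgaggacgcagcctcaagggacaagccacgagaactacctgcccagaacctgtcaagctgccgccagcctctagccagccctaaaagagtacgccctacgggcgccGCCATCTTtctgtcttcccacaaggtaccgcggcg

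Highest by mean in the large subunit stood Mrpl52, a mitochondria-specific protein, at 375 TPM in replicate 1 and 346 TPM in replicate 2 (mean 361 ± 20.4, SD, n = 2; gene at chr14:54426909-54429756, mm10). Mrpl12, the protein of the flexible stalk that recruits translation factors, had 188 and 349 TPM (269 ± 114; chr11:120484613-120489065). Mrpl4, a conserved protein of the exit tunnel wall, had 181 and 345 TPM. In both of these genes replicate 2 was clearly above replicate 1, whereas in Mrpl52 the replicates differed little. The conserved Mrpl20 had 218 and 254 TPM. The mitochondria-specific Mrpl51 had 205 and 216 TPM, and Mrpl42, of the same class, 199 and 218 TPM. Mrpl30 had 185 and 142 TPM and Mrpl18 161 and 148 TPM, both with bacterial counterparts. In replicate 2 Mrpl12 was above Mrpl52. The replicate values of Mrpl12 overlapped those of Mrpl52 and of Mrpl4, as did those of Mrpl51 and Mrpl42 and those of Mrpl30 and Mrpl18. Those of Mrpl12 and of Mrpl4 also spanned the values of Mrpl20, Mrpl51 and Mrpl42, which were above both in replicate 1. Mrpl4 overlapped Mrpl30 as well. The order within each of these pairs is not resolved.

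At the bottom of the large subunit was Mrpl35 with 15.3 and 9.05 TPM (12.2 ± 4.39; chr6:71812997-71826969). Mrpl23, which in bacteria lies at the exit of the peptide tunnel, had 6.89 and 24.5 TPM, and most reads that match it were assigned to a pseudogene copy, as given below. Mrpl11, at the base of the factor-binding stalk, had 26.0 and 24.3 TPM. Mrpl57 had 21.7 and 30.4 TPM. Mrpl1, the protein of the mobile stalk through which used tRNA leaves, had 46.0 and 16.9 TPM, so that its replicate values span those of its neighbours in the order. Mrpl16 had 38.8 and 36.3 TPM.

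Mrps21 led the small subunit with 419 and 356 TPM (387 ± 44.8; chr3:95862634-95871519). Its lower replicate value exceeded the higher value of every other small subunit gene. Mrps18c followed with 221 and 90.5 TPM, a pair of values that spans those of the next 6 genes. Mrps23 had 160 and 144 TPM, Mrps18b 120 and 181 TPM, and Mrps15 143 and 119 TPM. Mrps17 had 125 and 137 TPM, Mrps14 133 and 104 TPM, and Mrps5, part of the channel through which mRNA enters, 119 and 94.8 TPM. From Mrps18c to Mrps5 the replicate values overlapped from gene to gene.

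The lowest small subunit genes were Mrps31 with 36.7 and 25.3 TPM and Mrps27, a pentatricopeptide repeat protein, with 32.0 and 33.3 TPM. Mrps34 had 37.7 and 62.1 TPM and Mrps9 57.7 and 47.5 TPM. Mrps2 had 51.1 and 54.1 TPM. Mrps30, which carries a small subunit symbol but sits in the large subunit, had 50.8 and 54.8 TPM. The lowest single value in the small subunit was the 25.3 TPM of Mrps31, and Mrpl1, Mrpl11, Mrpl23, Mrpl35 and Mrpl57 of the large subunit each had a lower value in at least 1 replicate.

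Within the stalk, Mrpl12 was 4.28-fold higher than Mrpl10, which anchors it, or 2.10 ± 0.06 on the log2 scale with 2.05 in replicate 1 and 2.14 in replicate 2. Mrpl10 had 45.2 and 79.0 TPM, so both genes were higher in replicate 2 and their ratio was nearly the same in each. This difference is larger than the replicate spread of single genes, taken as the 95th percentile of the absolute log2 TPM ratio between replicates over 10045 detected protein-coding genes, 1.29 (2.44-fold). In the assembled ribosome several copies of Mrpl12 bind 1 copy of Mrpl10, a fact of structure that these RNA levels do not measure.

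The 3 homologs of bacterial S18 were all present. Mrps18c, the one that holds the S18 place of the small subunit, had the values given above. Mrps18b, a small subunit protein at another place, exceeded Mrps18a, which sits in the large subunit with 79.6 and 121 TPM. The difference was 0.60 in replicate 1 and 0.58 in replicate 2 on the log2 scale, a mean of 0.59 ± 0.01 (1.51-fold). It was smaller than the replicate spread of single genes. That spread compares single genes between libraries and does not measure the spread of this ratio. Relative to Mrps18a, Mrps18c stood at 1.47 in replicate 1 and -0.41 in replicate 2 on the log2 scale, so the order of Mrps18c among the 3 changed with the replicate.

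Levels of proteins with a second activity or a doubtful place were as follows. Mrpl58, a peptidyl-tRNA hydrolase that rescues stalled ribosomes, had 68.4 and 104 TPM. Mrpl44, which has a ribonuclease III fold, had 39.3 and 47.9 TPM. Mrps12, the protein at the decoding centre, had 61.6 and 95.3 TPM. Mrps36, now known as a component of the alpha-ketoglutarate dehydrogenase complex and not of the ribosome, had 56.0 and 68.7 TPM. Counting Mrps18a and Mrps30 with the large subunit and leaving out Mrps36 gave a subunit difference of 0.01 ± 0.12.

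Structural proteins of the ribosome that carry other symbols had similar levels to the members, with a median of 102 TPM (n = 5). Dap3, a GTP-binding protein of the small subunit, had 225 and 221 TPM, and Aurkaip1 had 125 and 154 TPM. Chchd1 had 102 TPM in both replicates. The pentatricopeptide repeat protein Ptcd3 had 98.5 and 48.7 TPM and Gadd45gip1, of the large subunit, 25.6 and 47.9 TPM.

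Of the 28 assembly genes 26 were detected. C1qbp, a matrix chaperone, was far above the others with 531 and 472 TPM, then Grsf1, an RNA granule protein, with 105 and 47.9 TPM and the GTPase Noa1 with 68.7 and 73.2 TPM. At the other end Gtpbp10 had 0.07 and 0.01 TPM and Fastkd2 was at 0 in both replicates. All 13 translation factors with values were detected. The elongation factors Tufm (145 and 206 TPM) and Gfm1 (167 and 108 TPM) led, followed by the insertase Oxa1l (44.8 and 67.9 TPM), and the release factors Mtrf1l (7.01 and 4.15 TPM) and Mtrf1 (4.94 and 3.56 TPM) were lowest. Mitochondrial transcription and RNA handling genes had a median of 53.0 TPM (n = 12), with Hsd17b10 (124 and 165 TPM), Slirp (132 and 136 TPM) and Tfam (156 and 74.0 TPM) at the top and Tfb2m (26.1 and 15.6 TPM) and Tefm (17.2 and 18.1 TPM) at the bottom. Among regulators Myc had 221 and 290 TPM, Pprc1 68.1 and 106 TPM and Yy1 67.7 and 51.2 TPM, while the coactivators Ppargc1b (5.08 and 8.39 TPM) and Ppargc1a (0.06 and 0.04 TPM) were lowest. Ppargc1a was thus below the detection minimum while its relative Pprc1 was not.

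The replicates were then compared gene by gene. Rounded expected counts were set against TMM-scaled library sizes (edgeR) in an exact binomial test, two-sided, with Benjamini-Hochberg adjustment over 15251 genes, and a gene was called where it differed 2-fold or more with the adjusted p under 0.05. With 1 library on each side this compares libraries and not conditions. Of the 77 genes, 7 were called higher in replicate 2, where 8.06% of all tested genes were, and 2 were called higher in replicate 1, where 11.7% of all tested genes were. The members' shares were 9.09% and 2.60%, the first near the share over all genes and the second below it. Of the detected protein-coding genes, 10044 were tested, and 578 were called higher in replicate 2 and 845 in replicate 1. Against this background the members' share was larger in replicate 2 and smaller in replicate 1. Whatever the fold, 72 of 77 members and 77.8% of all tested genes passed the adjusted p threshold. The members' median log2 ratio of replicate 2 over replicate 1 was 0.12, against 0.03 over all tested genes. Their median absolute log2 TPM ratio was 0.38, against 0.54 over the 10045 detected protein-coding genes, and 3 of 77 lay beyond the 95th percentile.

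Among the genes called higher in replicate 2, Mrpl23 had the largest ratio, 206 against 784 counts, 1.58 on the log2 scale (adjusted p = 1.69e-52 in the exact binomial test). That p leaves out the uncertainty of assigning reads to Mrpl23, which was larger than its counting error, as given below. Mrps28, the counterpart of bacterial S1, had 1285 and 3860 counts (37.7 and 88.7 TPM; log2 ratio 1.24). Mrpl2, a protein next to the peptidyl transferase centre, had 3137 and 8794 counts (72.5 and 158 TPM; 1.14). Mrpl14 had 56.0 and 120 TPM (log2 ratio of counts 1.08), Mrps26 54.9 and 117 TPM (1.07), Mrps11 43.0 and 87.9 TPM (1.01) and Mrps16 66.9 and 133 TPM (1.00). Higher in replicate 1 were Mrpl1, with 4317 and 2495 counts (-1.14), and Mrps18c, with 4348 and 2569 counts (-1.10). None of the 9 stands for a biological difference that the labels name, since both libraries carry the same description.

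The size and direction of the ratio moved with GC content. Across the 77 genes the log2 ratio and the GC content of the transcripts had Pearson's r = 0.70 and Spearman's rho = 0.71, and across 15102 tested genes with a GC value r = 0.57 and rho = 0.76, both over genes of the same 2 libraries. The 26 members lowest in GC (39.8% to 47.7%) had a median log2 ratio of -0.23, the 25 in the middle 0.07, and the 26 highest (52.5% to 60.8%) 0.64. Over all tested genes the median was -0.87 at 40% to 44% GC, -0.46 at 44% to 48% and 0.007 at 48% to 52%. It was 0.47 at 52% to 56%, 0.77 at 56% to 60% and 0.86 at 60% to 64%. Both genes called higher in replicate 1 were in the lowest of these groups and 5 of the 7 called higher in replicate 2 in the highest. With the GC trend over all genes removed, 4 members were called higher in replicate 2 (Mrpl23, Mrpl57, Mrps16 and Mrps30) and none in replicate 1, beside 3.96% and 4.14% of all tested genes. The log2 ratio of Mrpl1 then was -0.11 and that of Mrps18c -0.46. The part of GC content in the single ratios was not tested.

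**Figure D3:**
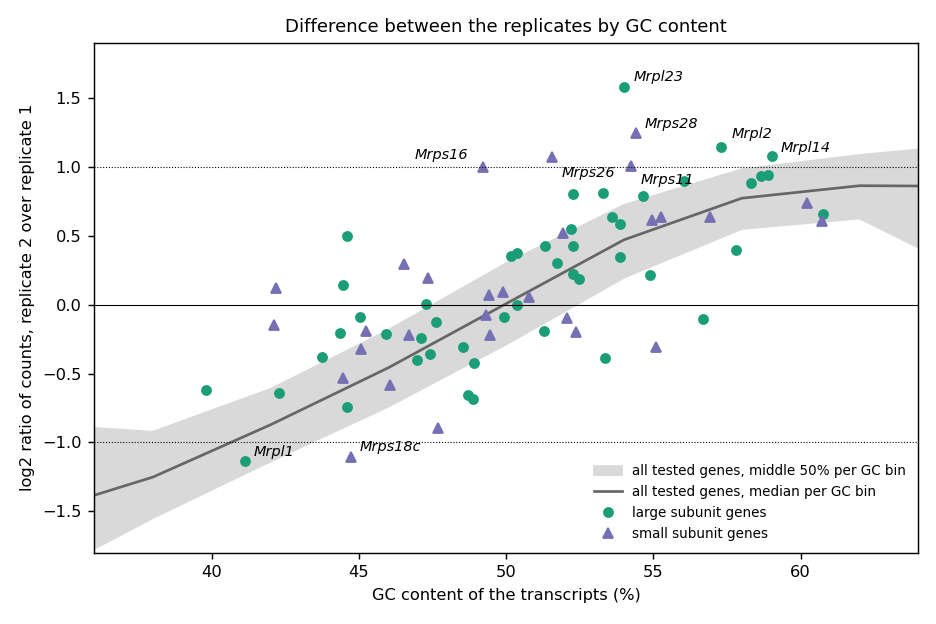
Log2 ratio of scaled counts, replicate 2 over replicate 1, against GC content for the 77 genes (circles, large subunit; triangles, small subunit), over the median and the middle 50% of all tested genes in bins of 4% GC. Dotted lines mark 2-fold, and the 9 called genes are named. The members' median rises from -0.23 in the 26 genes lowest in GC to 0.64 in the 26 highest. The median of all tested genes rises from -0.87 at 40% to 44% GC and -0.46 at 44% to 48% to 0.47 at 52% to 56% and 0.77 at 56% to 60%.

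Mrpl23 was the only member whose reads were assigned with an uncertainty above their counting error. Its posterior SD, the uncertainty of assigning reads within a library, was 3.17 and 5.91 times the counting error, while for the next members, Mrpl27, Mrps5, Mrps33, Mrpl51 and Mrpl48, it was at most 0.66 times. The processed pseudogene Mrpl23-ps1 on chromosome 2 was assigned 2030 and 2747 counts, with the same posterior SD as Mrpl23 (45.6 and 165). Together gene and copy had 89.1 and 112 TPM (100.3 ± 15.9, SD, n = 2), of which Mrpl23 took 9.23% and 22.2% of the counts, so the low level and the replicate ratio of Mrpl23 alone are uncertain. Mrpl48-ps had 23.2 ± 9.65 TPM, from 818 and 569 counts. Its posterior SD (25.37 and 19.78) was close to that of Mrpl48 (25.55 and 20.75), so this pair may share reads too. Mrps36-ps1 and Mrps36-ps2 reached at most 1.05 TPM, and Mrps36-ps3 was at 0.

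Most genes had several annotated transcripts. Of 58 members with more than 1 listed transcript, the most abundant was protein-coding in both replicates in 43 (74.1%), against 83.7% of 7391 detected protein-coding genes with more than 1, and it was the same transcript in both replicates in 48 (82.8% against 78.6%). In 13 members the most abundant transcript had a type other than protein-coding in both replicates. In these members protein-coding transcripts took under 50% of the gene's TPM in both. By level these began with Mrpl51, where Mrpl51-202 (processed transcript) took 73.7% and 38.4% and Mrpl51-203 (retained intron) 24.7% and 60.4% of TPM. Mrpl17-203 (nonsense-mediated decay) took 64.9% and 51.4%, Mrpl15-202 (processed transcript) 87.1% and 71.7%, and Mrpl3-204 (nonsense-mediated decay) 66.0% on average. Mrps14-201 (nonsense-mediated decay) took 92.9% and 88.7%, and Mrps24-201 (retained intron) 65.5% and 74.1%. For Mrps5 it was Mrps5-202 in replicate 1 and Mrps5-205 in replicate 2, both typed as retained introns, and for Mrpl13 Mrpl13-202 (nonsense-mediated decay) at 49.1% and 61.4%. Mrpl19-203 took 62.4% and 58.2%, and Mrps26-201 (retained intron) 97.9% and 98.6%.

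In Mrps26 protein-coding transcripts took 2.08% and 1.40% of TPM, and in Mrpl51 1.63% and 1.18%. In Mrpl32, which had 1 listed transcript and 131 and 85.2 TPM, that transcript is typed as a target of nonsense-mediated decay in the later annotation. Types were taken from a later GENCODE release than the one used for quantification, and for 8 of the 13 members the named transcripts had the same version in both. Transcripts of 1 gene share exons, so a share is a model estimate and not a direct count. Counting only protein-coding transcripts gave a median level of 59.4 TPM and a subunit difference of 0.10 ± 0.12 on the log2 scale.

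The 77 genes lie on 17 chromosomes, with 11 of them on chromosome 11, and many begin close to the start of a gene on the opposite strand. A protein-coding neighbour whose start lay within 1000 bases head to head was found for 33 of 77 members (42.9%), 24 of the large and 9 of the small subunit. The share was 10.9% over all protein-coding genes, 18.9% over detected ones, 19.3% over cytosolic ribosomal protein genes (16 of 83) and 36.1% over nuclear respiratory chain genes (30 of 83). Within 500 bases there were 25 members (32.5%, against 8.98% of protein-coding genes) and within 300 bases 22 (28.6%, against 7.51%). Over detected protein-coding genes these shares were 16.04% and 13.49%, and over cytosolic ribosomal protein genes 18.07% and 16.87%. Nuclear respiratory chain genes, at 31.33% and 26.51%, were close to the members.

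The 33 members formed 32 distinct pairs, since Mrpl46 and Mrps11 are each other's neighbour. The member was the higher gene in both replicates in 22 pairs and the neighbour in 7, and the order changed with the replicate in 3 (Mrpl46 and Mrps11, Mrpl51 and Ncapd2, Mrpl57 and Ska3). The median was 81.2 TPM for members and 27.6 TPM for neighbours, and 30 of the 33 neighbours were detected, Mrpl46 and Mrps11 counting on both sides. Beyond the replicate spread of 1.29 on the log2 scale, the member was higher in 18 pairs and the neighbour in 4. Among the closest pairs with the highest members, Mrpl51 and the condensin gene Ncapd2, with starts 100 bases apart, had 205 and 216 against 167 and 308 TPM, so that neither led in both replicates. Mrpl30 exceeded Mitd1 (32.4 and 17.4 TPM; 66 bases) 6.80-fold. Mrps18c exceeded the helicase gene Helq (24.6 and 24.0 TPM; 29 bases) 5.81-fold, and Mrps18b exceeded Ppp1r10 (44.8 and 46.6 TPM; 45 bases) 3.22-fold. In the first of these pairs Helq was level between replicates while Mrps18c was not.

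Mrpl2 exceeded the kinesin light chain gene Klc4 (3.02 and 7.17 TPM; 207 bases) 22.5-fold, and Mrps5 exceeded Zfp661 (4.54 and 4.39 TPM; 128 bases) 23.2-fold. The order was the other way for Mrpl32 and the proteasome gene Psma2 (305 and 296 TPM; 75 bases), by -1.51 ± 0.41 on the log2 scale. Mrpl21 exceeded Ighmbp2 (6.10 and 10.8 TPM; 5′ ends overlapping by 116 bases) 12.8-fold. Mrpl37 exceeded Cyb5rl (5.86 and 7.17 TPM; 120 bases) 15.2-fold, and Mrpl54 exceeded Apba3 (15.7 and 30.9 TPM; 26 bases) 4.30-fold. Mrpl36 was below Ndufs6, a complex I subunit gene (213 and 204 TPM; overlapping by 29 bases), by -1.42 ± 0.48. Mrps12 and Sars2, the gene of the mitochondrial seryl-tRNA synthetase whose start lies 172 bases away, had 61.6 and 95.3 against 18.6 and 37.5 TPM, a 2.89-fold difference with both genes higher in replicate 2.

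A single pair joined both subunits. Mrpl46 (chr7:78775236-78783531) and Mrps11 (chr7:78783119-78792989) start on opposite strands with their 5′ ends overlapping by 412 bases and share 173 exon bases. Mrpl46 had 49.1 and 54.7 TPM and Mrps11 43.0 and 87.9 TPM, so Mrpl46 was higher in replicate 1 and Mrps11 in replicate 2. Both had the same posterior SD of counts, 4.72 and 2.05. Exons of 32 of the 77 members overlap another gene's, 28 on the opposite strand and 20 with a protein-coding gene on the opposite strand. The sources used here do not say whether counting used the strand, so reads of overlapping genes may not have been told apart.

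**Figure D4:**
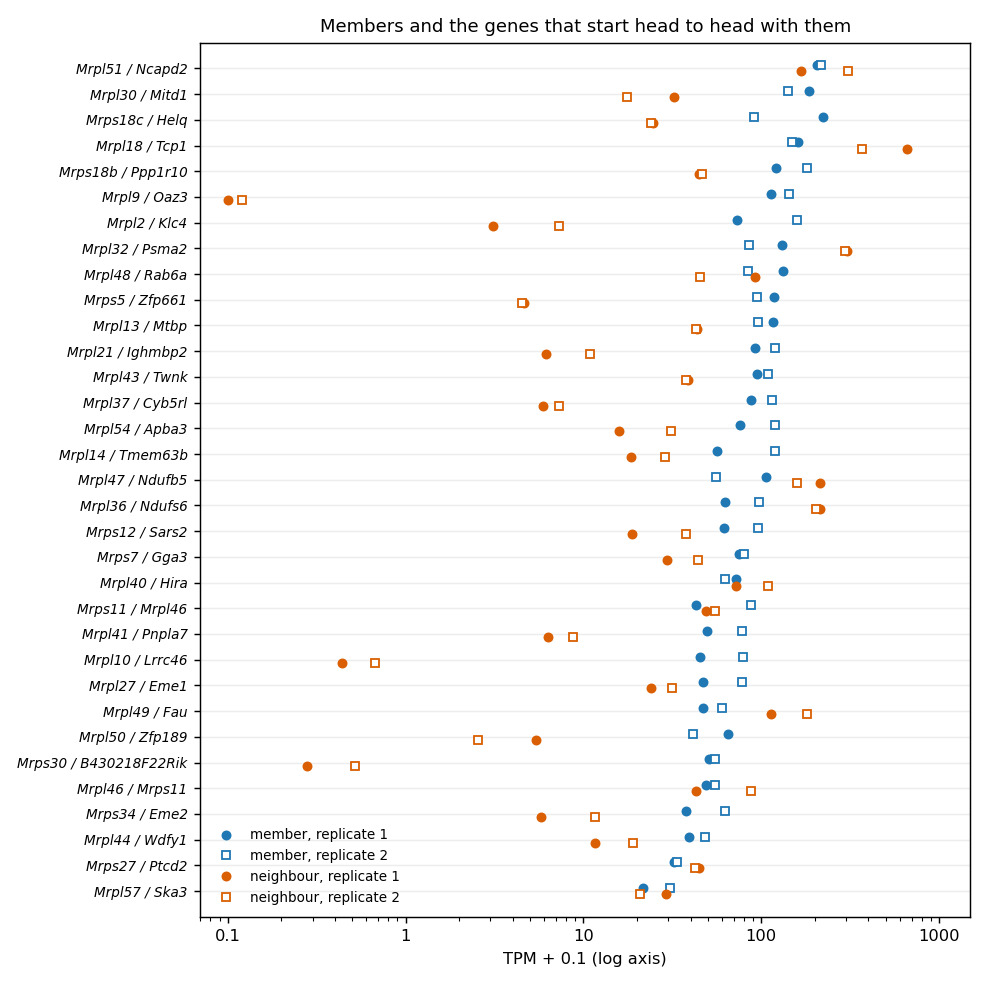
TPM + 0.1 on a log axis for 33 members (blue) and their head-to-head neighbours (orange), with filled circles for replicate 1 and open squares for replicate 2, ordered by the member's mean. Most members lie near 100 TPM, while neighbours spread from 0 to over 500 TPM.

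Promoters of 68 of the 77 members were in the RefSeq table, 74 in all, each from 250 bases before to 50 after the start. They were searched on both strands for the letters of 7 motifs. The ETS motif CCGGAAG, bound by factors such as GABP, was in 25 of 74 (33.8%), against 8.86% of all 32851 promoters, 19.8% of those of detected protein-coding genes and 34.7% of those of cytosolic ribosomal protein genes. Its 30 matches had a median position of -18 from the start, and 27 lay between -100 and 50. The YY1 motif AAGATGGC was in 12 (16.2%), against 2.75% of all and 5.07% of detected genes' promoters, 10.7% in cytosolic ribosomal protein genes and 12.7% in nuclear respiratory chain genes. Its median position was 16, and 8 of its 12 matches lay after the start, so only 4 promoters held it in the 250 bases before. The NRF1 motif GCGCATGC was in 7 (9.46%), against 2.71% of all and 5.80% of detected genes' promoters. NRF1 was in 14.1% of the promoters of nuclear respiratory chain genes and in 3 of the 75 of cytosolic ribosomal protein genes, and ETS in 22.5% of the former.

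For the other motifs the share of member promoters is given against that of detected genes. SP1 (GGGCGG) was in 52.7% against 64.6%, NFY (CCAAT) in 39.2% against 38.7%, E-box (CACGTG) in 9.46% against 10.3% and CRE (TGACGTCA) in 2.70% against 3.27%. Shares count promoters, and 3 members had more than 1. In Mrpl2, 1 of these members, close-lying promoters repeat the same SP1, NFY and E-box matches. By gene, SP1 was in 34, NFY in 26 and E-box in 5 of 68 members. Of 179 matches in all, such repeats included, 5 pairs of different motifs overlapped, in 3 members. ETS or NRF1 was matched in 29 of 68 members and both in 3, and 7 members had none of the 7 motifs, Mrpl12 among them. In the runs shown, Mrps21 has its ETS match 19 bases after the start, and Mrpl52 has matches at -47 and 3. Mrps18b holds NRF1 at 29 and ETS at 44, and Mrps12 and Mrps11 hold YY1 at -199 and -107. Mrps12 also has an ETS match at 2, which ends 1 base beyond the run shown and is therefore not in capitals. Members with an ETS match had a median level of 106 TPM (n = 25) and those without 66.6 TPM (n = 43), a description only. Other motifs went the same way, with 109 against 81.6 TPM for NRF1, 115 against 81.6 for E-box and 99.7 against 79.7 for SP1. For NFY the medians were 84.7 and 83.8 TPM. The order was the other way for YY1 (78.9 against 86.0 TPM) and CRE (45.5 against 86.0 TPM). Gabpa, a subunit of GABP, had 60.0 and 21.6 TPM and Nrf1 33.5 and 42.8 TPM, named here for the motifs and chosen after their values were seen. A match of letters is not a binding site, and no binding was measured.

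**Figure D5:**
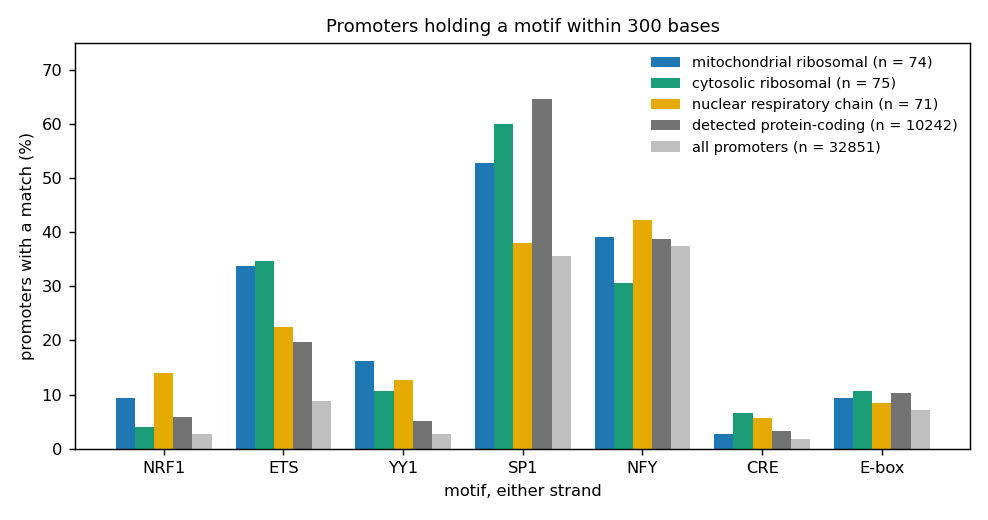
Share of promoters, from 250 bases before to 50 after the start, that hold each of 7 motifs on either strand, for 74 member promoters, 75 of cytosolic ribosomal protein genes, 71 of nuclear respiratory chain genes, 10242 of detected protein-coding genes and all 32851. ETS reaches 33.8% and YY1 16.2% in member promoters, against 8.86% and 2.75% in all and 19.8% and 5.07% in detected genes. In cytosolic ribosomal protein genes they reach 34.7% and 10.7%, and in nuclear respiratory chain genes 22.5% and 12.7%. NRF1 is highest in the respiratory chain genes, at 14.1%.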

How the data were processed

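Polyadenylated RNA of MEL cells was sequenced single-end in 2 libraries of 1 group. Per the file headers and labels, the authors quantified genes and transcripts on mm10 with GENCODE M4. Which aligner and quantifier were run, and whether strand was used, is not given in the sources used here. The deposited expected counts are estimated reads with multiply mapping reads divided by a model. Deposited TPM values are scaled by the authors by effective length to a fixed sum, while the deposited FPKM is per length and depth. The deposited score columns hold the posterior SD of counts within a library and the bounds of an interval.

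From these, symbols, types and positions were matched by identifier to GENCODE M21 on the same build (884 genes had no symbol), and promoters came from RefSeq. Expected counts were rounded for the binomial test, with genes at a summed count of at least 20, a prior count of 0.5 for ratios, TMM scaling in edgeR 4.0.16 and 15102 of 15251 tested genes with GC content. Trends were lowess curves with a fraction of 0.3. Library totals in place of TMM shifted all log2 ratios by 0.11. Subunit levels were compared as medians of log2(TPM + 0.1). No step of read processing was repeated. p-values measure only the difference between 2 libraries, and counts cover counting error only.

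The members, lists and motifs were chosen with earlier results of these data known; the classes of bacterial counterpart and mitochondria-specific proteins, and the alternatives that use them or both trends, were chosen after seeing the data. Genes named are the 8 highest and 6 lowest of each subunit, every called member, Mrps18a, Mrps18b, Mrps18c, Mrps30, Mrps36, Mrpl58, Mrpl44, Mrpl12 and Mrps12. Also named are up to 12 members with a neighbour within 300 bases and up to 10 whose leading transcript is not typed as protein-coding. To these come the 6 with the largest posterior SD, and of other lists the 3 highest and 2 lowest. The listed names Mtrfr and Prorp had no match. Alternatives were FPKM, posterior mean TPM, coding transcripts, other minimums for counts and TPM, other pseudocounts, DESeq2 1.42.0 size factors, library totals, removal of GC and length trends, other distances and promoter windows, and each replicate left out. The test was tried on simulated data. Software was Python 3.11.15 with statsmodels 0.14.6, scipy 1.17.1, pandas 2.3.3, numpy 2.4.6 and matplotlib 3.10.9, and R 4.3.3.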

Additional observations from a re-analysis of the deposited data

How the results depend on the processing

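Median level of the members was 59.4 TPM over protein-coding transcripts and 103 TPM over genes with a bacterial counterpart, and 74.8 to 90.5 TPM with 1 replicate left out. Large minus small subunit was -0.033 with means of log2 values, 0.29 for genes with a bacterial counterpart and 0.01 to 0.11 with 1 replicate left out. Members called between replicates numbered 29 at 1.5-fold (21 higher in replicate 2, 8 in replicate 1), beside 22.9% and 23.3% of all tested genes. With the GC trend removed 4 members were called higher in replicate 2 and 0 in replicate 1, beside 3.96% and 4.14% of all tested genes. The same counts held with GC and length trends removed, beside 4.19% and 3.95%. With library totals 10 members were called higher in replicate 2, with Mrpl12, Mrpl38 and Mrpl4 added, and 1 in replicate 1. Of all tested genes 11.2% and 9.36% were then called. The YY1 motif was in 4 promoters in the window before the start only. Of the 9 called genes, Mrpl23 and Mrps16 were called under every scaling and trend removal run. For Mrpl23 the test leaves out the uncertainty of assigning its reads. The other 7 called genes fell short of 2-fold with the GC trend removed. GC content moved with the ratios, and no cause of them was tested. Single levels moved by more than their replicate SD mostly when only protein-coding transcripts were counted. Leaving out a replicate leaves no comparison between replicates. No paired analysis was possible because there is 1 group. The smallest count, 206 for Mrpl23 in replicate 1, has a counting error of 6.96%, against 1.65% and 1.44% for the median member.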
